A study of Homo sapiens with 8 samples.

Results

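The microRNA miR-4521 was measured in HCT116 cells, a human colorectal cancer line, after contact with enterotoxigenic Bacteroides fragilis (ETBF), a gut anaerobe that secretes a metalloprotease toxin. It is the entry hsa-miR-4521, 1 of 2575 miRNA names counted and 1 of the 480 with enough counts to enter the fit across all names. It was selected on its counts in the ETBF and control libraries, for a strong and even rise, so its values in that contrast are given as a description and no test of them is reported. Small RNA was sequenced from 4 samples co-cultured with ETBF for 6 hours, with 500 bacteria per cell, and from 4 control samples titled untreated, which received the bacterial medium without ETBF. The control titles give no time. All 8 were adherent HCT116 cells at passages 16 to 19, with no further allele or agent named in the labels. The labels do not say whether replicates were separate cultures, so p-values of other miRNAs rest only on the spread among these samples, part of which may be technical.

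MicroRNAs are short RNAs that Argonaute proteins use to find partly complementary mRNAs, mainly through the seed at bases 2 to 8, and most are cut from a folded hairpin by Drosha and Dicer. The entry miR-4521 has another history. It has been reclassed by some authors as a tRNA-derived small RNA, the trailer that RNase Z (ELAC2) cuts from the 3′ end of a serine tRNA precursor made by RNA polymerase III, which stops at a run of U. Reports on cancer cells name the proliferation factor FOXM1 among the mRNAs it can repress. The counts measure the RNA by its sequence and do not tell which route made it.

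The sequences are shown because the place of the mature RNA in its locus is part of what follows. They are RefSeq's, on GRCh38.p14. The authors counted on GRCh37.p5, and the counts carry no coordinates. In the mature RNA the capitals mark the seed, and in the hairpin, at chr17:8186945-8187004 on the plus strand, they mark the mature RNA.
hsa-miR-4521: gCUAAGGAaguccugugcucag
MIR4521: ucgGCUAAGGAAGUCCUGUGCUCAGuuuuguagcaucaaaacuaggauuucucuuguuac

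The mature RNA begins at the base next to a tRNA gene. The RefSeq table places TRS-GCT4-3, a serine tRNA gene of 82 bases, at chr17:8186866-8186947, and mature miR-4521 at chr17:8186948-8186969, with 0 bases between them. The table gives no strand for the tRNA gene. Of the 2370 mature miRNA names in the table, 1 lay within 20 bases of any of RefSeq's 465 tRNA genes, and it was miR-4521. Within 10 kb stand 4 tRNA genes in all, TRW-CCA3-3 519 bases below the mature RNA, TRS-GCT4-3 beside it, and TRT-AGT1-1 and TRI-AAT5-5 at 191 and 624 bases above it. The nearest protein-coding gene is BORCS6, a subunit of the lysosome-positioning complex BORC, 1376 bases above. Among the protein-coding, tRNA, snoRNA, lncRNA and miRNA genes of the table, none other than MIR4521 covers the mature RNA. Other kinds of gene were not searched.

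The mature RNA is followed directly by UUUU in the hairpin, the letters that also end RNA polymerase III transcripts. Of 350 tested miRNAs whose next 4 hairpin bases could be read on the sense strand, 3 had UUUU there (0.857%). The other 2 were miR-382-3p and miR-494-3p, from the imprinted cluster of chromosome 14. They were at 2.04 ± 1.00 and 5.48 ± 2.45 CPM (counts scaled to a common library size) with ETBF and 1.86 ± 0.514 and 4.12 ± 0.433 CPM in controls (SD, n = 4 each). Neither passed the test applied to all 480 names, edgeR's quasi-likelihood test with a threshold of 0.05 on the Benjamini-Hochberg adjusted p (adjusted p = 0.842 and 0.299). These 4 letters describe the window and are no evidence of termination.

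The hairpin itself is short and weakly folded. It has 60 bases, against a median of 80 over the 1560 hairpins of the table. Its predicted minimum free energy was -17.1 kcal/mol, against a median of -36.4 kcal/mol over all hairpins and -39.3 kcal/mol over the 303 hairpins of tested miRNAs. Of those 303, 1 folded less strongly. Per base, which takes out the length, its energy was -0.285 kcal/mol against a median of -0.465 kcal/mol over the hairpins of tested miRNAs, and 6 of the 303 were weaker. The mature RNA spans bases 4 to 25 of the hairpin, and 15 of its 22 bases were paired in the predicted fold.

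**Figure D1:**
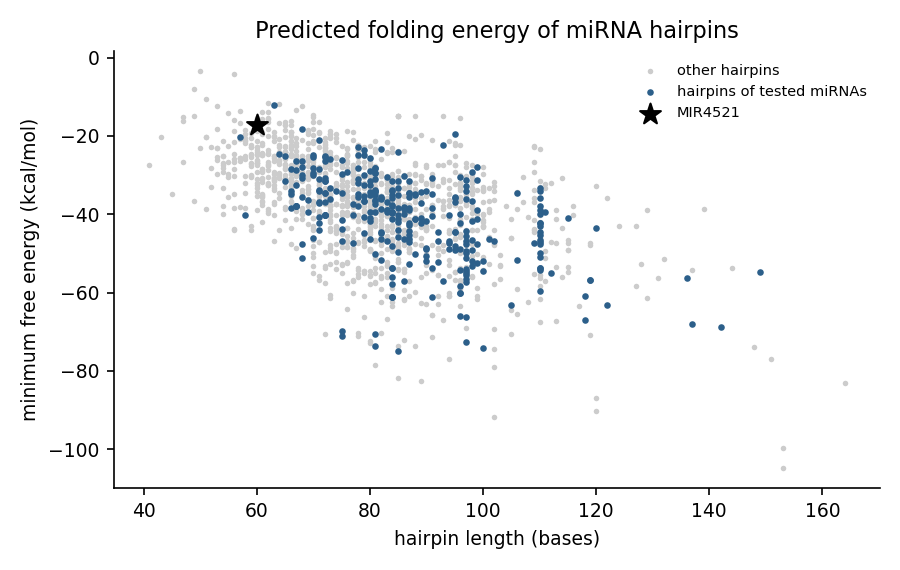
Predicted minimum free energy (kcal/mol) against hairpin length (bases) for the 1560 hairpins of the RefSeq table, with the 303 of tested miRNAs in blue and the others in grey. The star marks MIR4521 at 60 bases and -17.1 kcal/mol, near the upper left edge of the blue points.

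Of the other mature miRNAs in the table, 0 share its bases 2 to 8 (CUAAGGA), and 0 share bases 2 to 7, so there was no seed family to set beside it. The same 7 letters begin within the first 12 bases of 1 other miRNA, miR-3675-3p, at a shifted place. The longest run shared with any other mature miRNA was 10 bases, with miR-1910-5p, whose shared run is in capitals.
hsa-miR-1910-5p: ccAGUCCUGUGCcugccgccu
The mature sequence has 54.5% GC, against a median of 47.6% over the 417 tested miRNAs with a sequence. It starts with G, as 7.19% of them do, while 42.0% start with U. It has 1 hairpin locus, and its 8 counts have no common factor above 1. The counts of 43 other names shared such a factor, as reads counted once per genomic copy can give. Whether genomic copies lay behind those 43 was not tested.

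In the ETBF libraries miR-4521 had 3057, 3368, 2557 and 1800 counts for replicates 1 to 4, and in the control libraries it had 736, 844, 734 and 855. The ETBF libraries held more of its reads although they were the smaller ones, with totals of 2591655 to 4706156 counts against 5243400 to 6522542 in controls. Scaled by the TMM factors, edgeR's correction for differing library make-up, its level was 657, 791, 657 and 674 CPM with ETBF, and 146, 149, 140 and 128 CPM in controls. The groups did not overlap, a property of 33.8% of all tested miRNAs, and the lowest ETBF library lay 4.42-fold above the highest control. The means were 695 ± 65.0 CPM with ETBF, against 141 ± 9.49 CPM in controls (mean ± SD of 4 libraries each). They were 4.94-fold apart, and the edgeR log2 fold change for ETBF over control was 2.31. In bulk samples a higher level in every cell and a high level in some cells cannot be told apart.

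As a share of all counted reads, miR-4521 took 0.0650%, 0.0834%, 0.0659% and 0.0695% of the ETBF libraries. In the controls it took 0.0140%, 0.0140%, 0.0140% and 0.0131%. The 95% Wilson interval of ETBF replicate 2 ran from 0.0807% to 0.0863%, above those of the other 3 ETBF libraries, which together covered 0.0627% to 0.0727%. The control intervals all overlapped, between 0.0123% and 0.0150%. Such intervals hold the counting error alone, as reads that carry no molecular identifier are not independent molecules. Counting alone would give a coefficient of variation of 1.72% to 2.36% per ETBF library and 3.42% to 3.69% per control library. The observed coefficients of the share over replicates were 12.1% with ETBF and 3.15% in controls, and those of TMM-normalised CPM were 9.35% with ETBF and 6.75% in controls. The spread was thus wider than counting in the ETBF libraries on both measures, while in controls it was wider for CPM and no wider than counting for the share.

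The rank of miR-4521 by abundance was 73, 68, 72 and 71 in the ETBF libraries, with 1 the most abundant name. In the controls its rank was 130, 130, 130 and 134. It thus stood within the upper 6.92% to 8.05% of detected names with ETBF, and within the upper 12.1% to 12.7% in controls. Of the 126 names that outnumbered it in all 4 control libraries, 54 had fewer counts than it in all 4 ETBF libraries. The reverse, a name below it in all controls and above it in all ETBF libraries, occurred 0 times. Such a name would have to rise more than miR-4521, which was chosen for its rise, so both counts are a description.

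**Figure D2:**
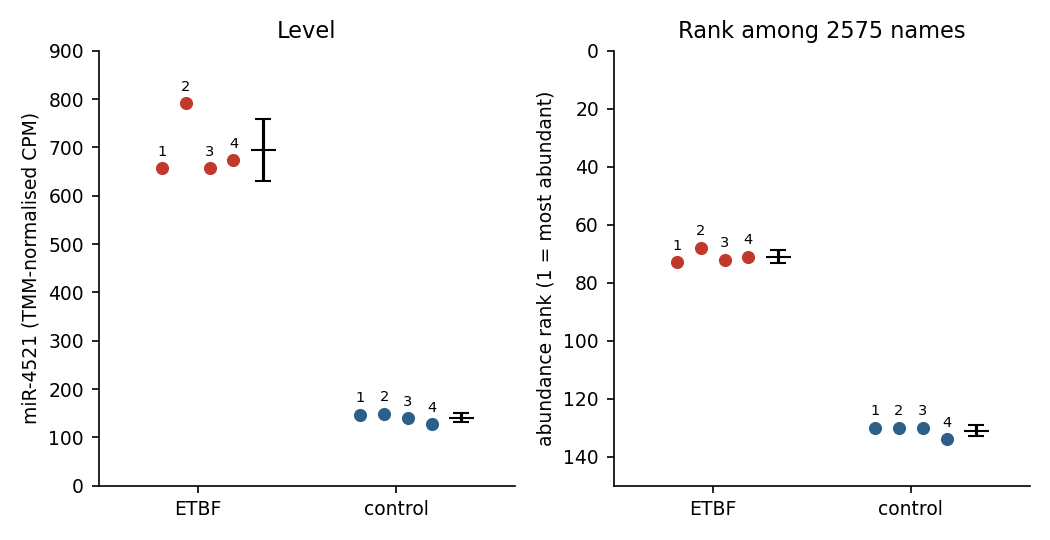
Level of miR-4521 in TMM-normalised CPM (left) and its abundance rank among 2575 names (right, axis turned so that high abundance is up) in each library, numbered by replicate, with bars for the mean and SD of 4 libraries. The ETBF libraries sit at 657 to 791 CPM and ranks 68 to 73, and the controls at 128 to 149 CPM and ranks 130 to 134.

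The names beside it in the order of mean CPM differed between the groups. With ETBF it stood just below miR-9-3p (704 ± 55.6 CPM), the minor arm of a neural miRNA, and miR-532-5p (704 ± 34.2 CPM), and just above miR-185-5p (619 ± 49.2 CPM) and miR-29b-3p (593 ± 47.2 CPM), a repressor of collagen mRNAs. The miR-4521 values overlapped those of the first 3 of these neighbours over the ETBF libraries, and lay above those of miR-29b-3p, whose highest library was at 652 CPM. In controls it stood just below miR-651-5p (151 ± 5.73 CPM) and miR-3615 (144 ± 13.3 CPM) and just above miR-148a-5p (128 ± 14.6 CPM) and miR-574-3p (127 ± 6.82 CPM), with overlapping values for all 4. All are mean ± SD with n = 4.

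The level was also expressed against each of the most abundant miRNAs, a measure that needs no scaling factor. These ratios reuse the counts that chose miR-4521, so they describe the same contrast again and are no second result. Per 1000 counts of miR-21-5p, an oncogenic miRNA and the most abundant of these cells, there were 1.73, 2.52, 1.91 and 1.92 counts of miR-4521 with ETBF and 0.395, 0.400, 0.421 and 0.381 in controls. Per 1000 counts of let-7a-5p, a member of the tumour-suppressing let-7 family, the means were 17.6 ± 1.01 with ETBF, against 3.08 ± 0.201 in controls (SD, n = 4 each). Over the 5 most abundant miRNAs, which also included miR-7-5p, miR-100-5p and let-7f-5p, the ratio of these means lay between 4.57 and 5.71. It was lowest for miR-7-5p and highest for let-7a-5p. Let-7a-5p was itself lower with ETBF (log2 fold change -0.21, SE 0.06, edgeR adjusted p = 0.0170), a call lost in 4 of 19 alternatives. For each of the 5 the lowest ETBF ratio was above the highest control ratio.

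Among all tested miRNAs 165 of 480 passed at an adjusted p under 0.05 (34.4%), 95 of them higher with ETBF (19.8%) and 70 lower (14.6%). With upper-quartile scaling 71 were higher and 89 lower. The groups did not overlap for 162 of the 480 (33.8%), and all 4 ETBF libraries lay above all 4 controls for 87 (18.1%). These shares used the contrast that chose miR-4521 and are given as background. By log2 fold change miR-4521 was in position 3 of 480, and 5 names, itself included, reached 4-fold or more. Without a filter on low counts its position was 40, since 37 names that the filter removes, with at most 48 counts each over the 8 libraries, came before it. By the gap between the lowest ETBF and the highest control library it was in position 1. The 2 names before it were far less abundant. The first, miR-4426, rests on few reads, with 10, 14, 24 and 12 counts in ETBF libraries and 0, 5, 0 and 0 in controls. The second, miR-7641, whose sequence resembles ribosomal RNA, was at 93.0 ± 10.2 CPM with ETBF, against 12.6 ± 6.59 CPM in controls.

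The 3 names just after it were also low. The minor arm miR-16-1-3p, from the DLEU2 tumour suppressor locus, was at 12.7 ± 2.03 CPM with ETBF, against 2.82 ± 0.409 CPM in controls (log2 fold change 2.17, SE 0.21, edgeR adjusted p = 9.71e-07). The others were miR-1257 (2.06, SE 0.45) at 4.99 ± 0.864 CPM with ETBF, against 1.17 ± 0.935 CPM in controls, and the erythroid miR-451a (1.94, SE 0.35) at 29.4 ± 19.8 CPM with ETBF, against 7.24 ± 1.97 CPM in controls. So miR-4521 combined a fold change of this size with a mean level of 695 CPM with ETBF, where the other 5 names around it in that order averaged under 100 CPM in both groups.

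**Figure D3:**
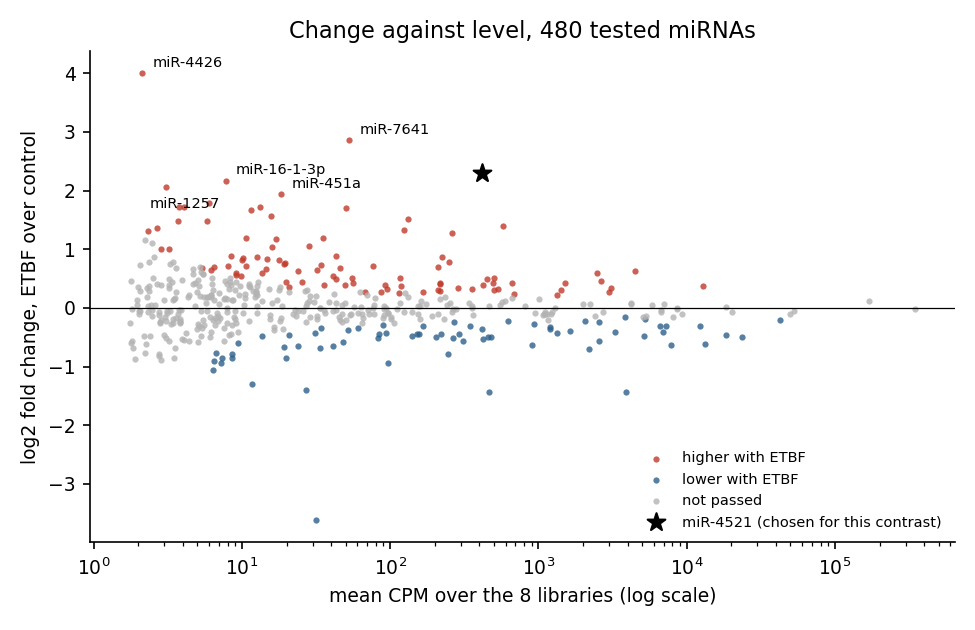
Log2 fold change (ETBF over control) against mean CPM over the 8 libraries (log scale) for 480 tested miRNAs, coloured by the edgeR call. The star marks miR-4521 at 2.31, and the names are those of the 2 before and the 3 after it in the order of fold change, all at lower levels.

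The spread of miR-4521 between replicates was ordinary for its level. Its pooled SD within groups was 0.12 on the log2 scale, against a median of 0.11 over the 52 tested miRNAs whose mean level was within 2-fold of its own, where it took position 28 from the smallest. Over all 480 the median SD was 0.20, which includes many low names.

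Entries of other RNA classes were set beside it because miR-4521 adjoins a tRNA gene. Of 12 names of tRNA origin that were listed, 3 are in the count files, 1 had any count and 0 were tested. That name, miR-1260b, which resembles tRNA-Leu, had 7, 7, 7 and 4 counts with ETBF and 9, 6, 4 and 9 in controls, so no other entry of the list could show a change at this depth. Of 27 listed names that overlap or resemble ribosomal RNA, snoRNA, U2, vault RNA or repeats, 9 were tested, of which 5 rose, 0 fell and 4 did not pass, against 19.8% higher over all tested names. Their median log2 fold change was 0.84, against 0.01 over all 480. Their summed level before TMM scaling was 225 to 669 CPM in ETBF libraries and 73.6 to 205 CPM in controls. The part of such RNA, or of RNA quality, in the level of miR-4521 was not tested. With the names of this list left out before scaling, the log2 fold change of miR-4521 was 2.32. The list held up to 669 CPM of a library, so leaving it out could move the scaling little. That value therefore does not address the part of such RNA.

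The 5 entries that rose in this list had lower mean levels than miR-4521 in both groups. MiR-7641 rose more than miR-4521 (log2 fold change 2.86, SE 0.23, edgeR adjusted p = 1.09e-07). It was at 93.0 ± 10.2 CPM with ETBF, against 12.6 ± 6.59 CPM in controls. MiR-3687, from the ribosomal RNA unit, was at 20.4 ± 8.94 CPM with ETBF, against 6.00 ± 3.46 CPM in controls (log2 fold change 1.72, SE 0.34, edgeR adjusted p = 0.000803). MiR-663a was at 6.35 ± 2.33 CPM with ETBF, against 1.84 ± 0.692 CPM in controls (1.71, SE 0.34, edgeR adjusted p = 0.000924). MiR-1303, from an Alu repeat, was at 19.1 ± 2.10 CPM with ETBF, against 10.5 ± 1.24 CPM in controls (0.84, SE 0.14). MiR-6087, which resembles ribosomal RNA, was at 79.1, 101, 155 and 445 CPM with ETBF, against 24.3, 129, 74.9 and 40.7 CPM in controls. Its groups overlapped, and its call (1.51, SE 0.49, edgeR adjusted p = 0.0247) was lost without ETBF replicate 4, where the log2 fold change was 0.73 (adjusted p = 0.161), without control replicate 1 (adjusted p = 0.0517), without control replicate 4 (0.0721) and in DESeq2 (0.105). In ETBF replicate 4, where miR-6087 was highest, miR-4521 was at 674 CPM, close to replicates 1 and 3. This is 1 library, and a link between the levels of miR-6087 and miR-4521 was not tested. The snoRNA-derived miR-664a-3p (-0.09, SE 0.15) and miR-1291 (0.19, SE 0.19) did not pass, and neither did miR-1248 (0.68, SE 0.38) and miR-3607-3p (0.69, SE 0.52). The last pair passed without control replicate 2, at 1.16 and 1.49 (adjusted p = 0.0210 and 0.0279).

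The other tested miRNAs that RefSeq places on chromosome 17 had smaller log2 fold changes than miR-4521. As miR-4521 was chosen for its rise, that order follows from the choice and is no result about the locus. RefSeq held 417 of the 480 tested names, so the others, miR-451a among them, could not be placed and are not counted here. Of the 33 placed on that chromosome alone, 5 rose, 9 fell and 19 did not pass. Their median log2 fold change was -0.07, against 0.01 over all 480. Called in either direction were 42.4% of them, against 34.4% over all tested names, and higher were 15.2%, against 19.8%. The count of 5 was 2 or 3 in 13 of 19 alternatives, among them 7 of the 8 that leave out 1 library, all but control replicate 1. Within 2 Mb of miR-4521 there were 5 tested names from 3 hairpins, of which 1, miR-195-3p, was higher and 4 did not pass, a share near the 19.8% higher over all tested names. On the lower side the nearest were the arms of miR-324, a regulator of Hedgehog signalling, 964 kb away. MiR-324-5p was at 10.6 ± 1.20 CPM with ETBF, against 7.79 ± 1.83 CPM in controls (0.44, SE 0.19, edgeR adjusted p = 0.0927), and miR-324-3p at 3.48 ± 0.569 CPM with ETBF, against 4.12 ± 1.27 CPM in controls (-0.25, SE 0.29). MiR-497-5p, a member of the miR-15/16 seed group, was 1169 kb away at 0.22 (SE 0.20, edgeR adjusted p = 0.448).

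On the higher side the nearest tested hairpin among those placed was that of miR-744, 3895 kb away. MiR-744-5p fell to 844 ± 65.1 CPM with ETBF, against 1021 ± 73.2 CPM in controls (-0.27, SE 0.08, edgeR adjusted p = 0.0119), and miR-744-3p did not pass (-0.07, SE 0.21). MiR-33b-3p, from an intron of the sterol regulator SREBF1, rose to 6.63 ± 1.07 CPM with ETBF, against 4.07 ± 1.07 CPM in controls (0.68, SE 0.24, edgeR adjusted p = 0.0412). That call was lost in 9 of the 18 alternatives that tested it, with adjusted p up to 0.124, among them leaving out ETBF replicate 1, 3 or 4 or control replicate 2, 3 or 4.

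**Figure D4:**
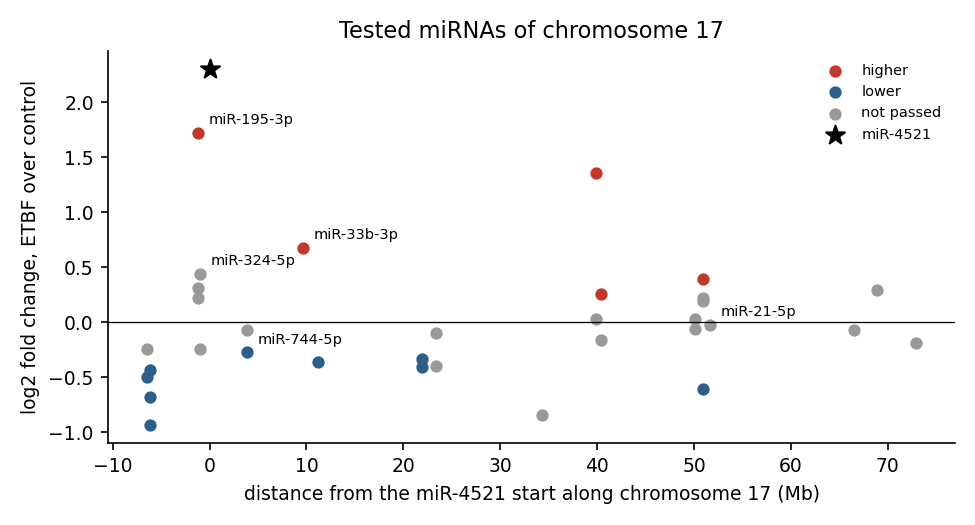
Log2 fold change (ETBF over control) against the distance along chromosome 17 from the start of miR-4521 (Mb), with miR-4521 as the star. Points are the 33 tested miRNAs that RefSeq places on that chromosome alone, coloured by the edgeR call. The names within 2 Mb run from -0.25 to 1.72, and miR-4521, which was chosen for its rise, is at 2.31.

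The miRNAs whose profile over the 8 libraries was most like that of miR-4521 were found by the root mean square difference of log2 CPM, each profile centred on its own mean. This measure follows the ETBF contrast and is a description. The closest was miR-16-1-3p, with a difference of 0.18, against a median of 1.17 over the other 479. Next came miR-573 (0.39), miR-222-5p (0.41), miR-128-1-5p (0.44) and miR-195-3p (0.45). MiR-222-5p is the partner of an arm that represses the cell cycle inhibitor CDKN1B, and miR-128-1-5p that of a brain-enriched arm. The hairpin of miR-195-3p lies with that of miR-497 on chromosome 17, 1169 kb from miR-4521.

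These 5 were at lower levels than miR-4521. MiR-222-5p was at 77.5 ± 18.4 CPM with ETBF, against 23.8 ± 4.85 CPM in controls (log2 fold change 1.70, SE 0.17, edgeR adjusted p = 1.19e-06). MiR-128-1-5p was at 17.5 ± 3.89 CPM with ETBF, against 5.53 ± 0.593 CPM in controls (1.67, SE 0.18). The remaining 2, miR-573 (1.78, SE 0.25) and miR-195-3p (1.72, SE 0.27), averaged under 10 CPM in both groups. The ETBF and control libraries did not overlap for any of the 5, as for 33.8% of all tested names, and the measure that chose them favours such profiles. ETBF replicate 2, the highest for miR-4521, was also the highest for miR-16-1-3p and miR-573. For miR-222-5p the highest was replicate 4, for miR-128-1-5p replicate 3, and for miR-195-3p replicate 1.

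**Figure D5:**
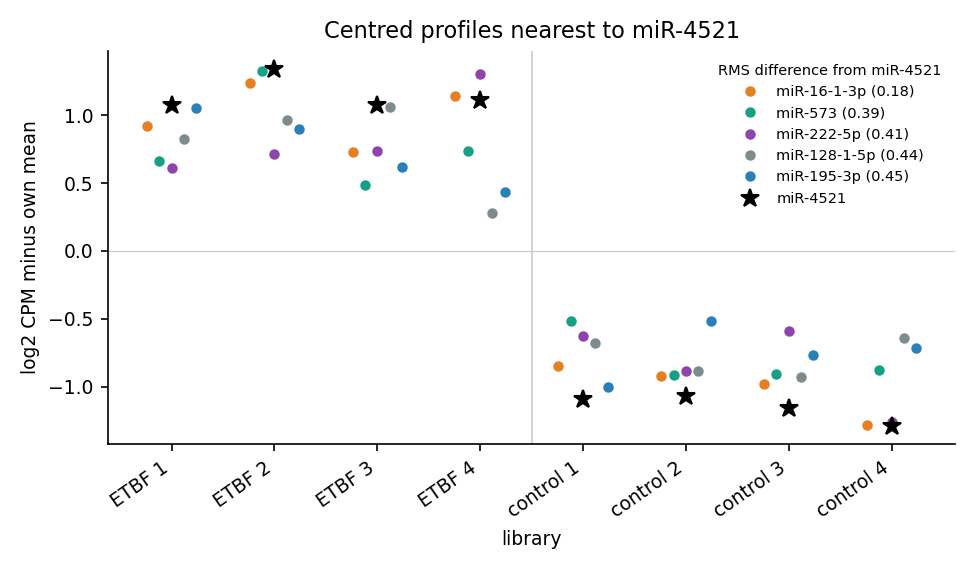
Log2 CPM minus the miRNA's own mean over the 8 libraries, for miR-4521 (stars) and the 5 tested miRNAs with the smallest root mean square difference from it (points, difference in the legend), by library. All 6 lie above their mean in the ETBF libraries and below it in the controls, with miR-16-1-3p nearest to miR-4521 at 0.18.

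Among miRNAs with high catalogue numbers miR-4521 took a leading place with ETBF. Of the 1644 names numbered 1000 or higher it was second by count in all 4 ETBF libraries, after miR-1307-3p, and 4th or 5th in controls, where miR-1180-3p was second. It made up 16.6% ± 2.15 of the counts of all these names with ETBF, against 3.85% ± 0.226 in controls (SD, n = 4 each). Of the other 103 tested names of this kind 9 were higher and 8 lower with ETBF, 16.5% in all, against 34.4% over all tested names, and 86 did not pass.

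Epithelial miRNAs were abundant in all libraries, as the cell label says. The 7 epithelial markers counted summed to 24464 to 26387 CPM in ETBF libraries and 26826 to 29309 CPM in controls. Of these 7, all tested, 4 were lower with ETBF and 0 higher, against 14.6% lower and 19.8% higher over all tested names. MiR-200c-3p (-0.32, SE 0.07, edgeR adjusted p = 0.00154) and miR-192-5p (-0.30, SE 0.09) were lower in every alternative run. MiR-429 (-0.23, SE 0.07) and miR-200a-3p (-0.19, SE 0.06) lost their calls in 3 and 9 of 19 alternatives, total-count scaling among them for both, and without ETBF replicate 3 or 4. MiR-200a-3p also lost its call without ETBF replicate 1 or control replicate 2, 3 or 4. Of the 6 blood markers the myeloid miR-223-3p was near 0, with 2 counts in all ETBF libraries together and 1 in all controls. The list had 4 tested members, and 1 of these, miR-451a, was higher, against 19.8% higher over all tested names. The 6 summed to 73.5 to 108 CPM in ETBF libraries and 58.5 to 69.9 CPM in controls, and their part in the results was not tested. The stroma and muscle markers summed to 390 to 431 CPM in ETBF libraries and 388 to 431 CPM in controls, and the 3 of them tested, miR-143-3p, miR-145-5p and miR-199a-3p, did not pass. The muscle miR-1 had 29 counts in all ETBF libraries together and 37 in all controls. The muscle miR-206 and the neuronal miR-124-3p had 0 counts in every library, which allows 0.637 to 1.16 CPM per ETBF library and 0.460 to 0.572 CPM per control library at 3 counts. The neural miR-9-5p was not absent, at 8492 CPM with ETBF, and did not pass (-0.03, SE 0.09).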

How the data were processed

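Raw read counts per mature miRNA name were deposited by the authors, 1 file per library with 2575 names. The submitters' processing notes name Trimmomatic, FastQC and featureCounts and the build GRCh37.p5. Not given in the sources used here are tool versions, aligner, miRNA annotation and strandedness. Samples were grouped by their titles. No pair of libraries within a group was identical, with chi-square per degree of freedom of 23.6 to 147.

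Counts were fitted in R 4.3.3 with edgeR 4.0.16 (quasi-likelihood F test, TMM, filterByExpr at a minimum count of 10, 2 groups, two-sided, Benjamini-Hochberg over 480 names, threshold 0.05). CPM are TMM-normalised, given as mean ± SD. The SE is the log2 fold change over the square root of F. Log2 profiles used a prior count of 2. The fit was tested on simulated data. Alternatives used DESeq2 1.42.0, limma 3.58.1, other scalings and filters, thinning and leaving out libraries. Hairpins were folded with ViennaRNA 2.7.2. RefSeq gave a mature sequence for 2260 of the 2575 names.

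The member and the lists were chosen with earlier results of these data known. Named were miR-4521, tested entries of the lists, the 3 nearest tested chromosome neighbours per side, the names 3 before and after it by log2 fold change, 2 above and below it by CPM per group, the 5 most like profiles, the 5 most abundant miRNAs and cell type markers. MiR-382-3p, miR-494-3p, miR-1260b, miR-3675-3p, miR-1910-5p, miR-1307-3p and miR-1180-3p were named after their values or sequences were seen, as were the tRNA neighbourhood, the UUUU and folding comparisons.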

Additional observations from a re-analysis of the deposited data

Results flagged for a closer look

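A value is listed here where 1 library lay far from the other 3 of its group relative to the group's range, a test that chance alone meets in about 1 in 20 groups. It was run on 108 groups of 4 libraries and met in 12. The rate of 1 in 20 does not hold for tied values, such as equal ranks or 0 counts. The groups are also not all separate, as CPM, rank and share describe the same counts. For miR-4521 the test was met 3 times, by CPM, rank and share. ETBF replicate 2 was at 791 CPM, above the range of 657 to 674 CPM for replicates 1, 3 and 4, and its log2 fold change without that library was 2.21. Control replicate 4 had rank 134, against 130 in each of the other 3, and a share of 0.0131%, below their 0.0140%. Without that library the log2 fold change was 2.26. Of the other miRNAs named, in ETBF libraries miR-148a-5p was at 156 CPM in replicate 1, above 107 to 112 CPM, and miR-222-5p at 105 CPM in replicate 4, above 64.7 to 70.9 CPM. In control replicate 1, miR-141-3p was at 160 CPM, below 208 to 217 CPM, and miR-573 at 3.38 CPM, above 2.47 to 2.54 CPM. In control replicate 2, miR-3607-3p was at 9.33 CPM, above 1.99 to 2.54 CPM, miR-1291 at 5.28 CPM, below 5.89 to 5.97 CPM, and miR-4426 at 0.881 CPM, where the others had 0 counts. MiR-33b-3p was at 2.47 CPM in control replicate 3, below 4.40 to 4.77 CPM, and miR-1303 at 12.4 CPM in control replicate 4, above 9.86 to 9.94 CPM. The sources of these differences were not tested.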

How the results depend on the processing

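The log2 fold change of miR-4521 lay between 2.21 and 2.37 in 20 alternatives, 2.21 to 2.33 over those that leave out 1 library, and was 2.31 after removal of the GC trend. Its position by log2 fold change was 2 to 5, but 40 without a filter. Counts of miRNAs placed on chromosome 17 that were higher changed from 5 to 3 with RLE scaling, without a filter, with DESeq2 and after thinning. They came to 2 with upper-quartile scaling and the stricter filter, and to 2 to 4 when 1 library was left out. Within 2 Mb the count higher was 0 with the stricter filter, where none of these names was tested. Names numbered 1000 or higher that were lower came to 5 with the stricter filter, where 29 were tested, and to 8 to 13 when 1 library was left out, 13 without ETBF replicate 1. The cause of the changes with scaling, tool or library was not tested. Of the 51 other named miRNAs 8 changed their call in at least 1 alternative, and 0 reversed. Libraries with the same replicate number shared no clear deviation from their group means, with correlations of 0.03, 0.06, -0.06 and 0.03. These values cannot show whether such libraries were prepared as pairs. With the replicate block 92 miRNAs were higher and 67 lower, and miR-4521 was at 2.30. Lists of tRNA-derived names and seed sharers had no tested member and no alternative value. Depth limits names of few counts, such as miR-1260b.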
